A study of Mus musculus with 28 samples.

Results

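A set of 10 genes that mark macrophages in the mouse was followed by symbol through a kidney injury series: Csf1r, Adgre1, Cd68, Lyz2, Mrc1, Cx3cr1, Fcgr1, Cd163, Chil3 and Arg1. All 10 of 10 were found, among the 53392 genes of the deposited files. They were chosen by name and not by a measured value, but with earlier results of these data known. The series holds 28 RNA sequencing libraries of FVB male mice in 10 groups, made of 2 cell types and 5 conditions. Endothelial cells were pulled from digested kidneys with beads against CD31, a surface protein that some leukocytes also carry, and proximal tubules were collected by microdissection. Per-library counts were analysed here for 6 groups: ischemic kidney injury treated with a miR-486-5p mimic (2 libraries per cell type), with exosomes (3 libraries) or with scrambled miRNA (3 libraries). Every one of these mice was injured, so the scrambled miRNA group is an injured control and not a healthy one. The untreated injury and sham groups (3 libraries each per cell type) were used through the authors' comparison tables only, and per the labels they are reanalysed samples of an earlier series. In a comparison that crosses the series, the series and the condition cannot be told apart. The labels do not name the source of the exosomes or the time after injury.

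Kidney macrophages come from a resident population that settles early in life and from blood monocytes that enter after injury. Ischemia kills tubular cells, and phagocytes that arrive first make inflammatory cytokines, while later ones clear debris and express genes of alternative activation. Csf1r is the receptor for the growth factors Csf1 and Il34, on which macrophages depend, and Cx3cr1 is the receptor for the endothelial and epithelial chemokine Cx3cl1. Adgre1 encodes F4/80, the classical surface marker of mouse macrophages, and Fcgr1 encodes the high-affinity receptor for IgG. Cd68 is a glycoprotein of the lysosome and endosome, and Lyz2 encodes lysozyme of macrophages and neutrophils. Mrc1 is the mannose receptor and Cd163 the haemoglobin scavenger receptor. Chil3 (Ym1) is a chitinase-like protein that lacks chitinase activity, made by alternatively activated macrophages and also by neutrophils, and Arg1 is arginase, which turns arginine into ornithine. Apart from Lyz2 and Chil3, several of the genes are also found outside macrophages: endothelial cells can express Mrc1, and Cx3cr1 is found on some lymphocytes.

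The stretches before the start sites of Chil3, Lyz2 and Cd68 are shown because these genes were among those farthest from scrambled miRNA in one isolation or the other. PU.1 (Spi1) is the transcription factor that macrophages need to form, and it binds purine-rich letters. RefSeq promoters of GRCm38.p6 were at hand for 7 of the 10 genes (Mrc1, Fcgr1, Chil3, Cd163, Cx3cr1, Lyz2 and Cd68), and the 250 bases before the start were searched on both strands. The 8 letters GAGGAAGT were in 0 of 7, against 2.44% of 27025 promoters. The shorter GGAAGT, which lies inside GAGGAAGT and was added after that search, was in 4 of 7 (Mrc1, Fcgr1, Chil3 and Lyz2), against 20.0% of all promoters. In the sequences, read 5′ to 3′ along each gene, capitals mark GGAAGT or its reverse complement ACTTCC. A match describes the letters of this window and not a bound site.
Chil3, chr3:106167565-106167814, minus strand: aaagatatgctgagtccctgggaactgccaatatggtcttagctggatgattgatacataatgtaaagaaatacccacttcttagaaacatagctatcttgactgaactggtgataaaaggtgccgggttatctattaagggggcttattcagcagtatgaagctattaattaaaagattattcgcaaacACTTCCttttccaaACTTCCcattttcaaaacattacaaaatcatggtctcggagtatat
Lyz2, chr10:117282273-117282522, minus strand: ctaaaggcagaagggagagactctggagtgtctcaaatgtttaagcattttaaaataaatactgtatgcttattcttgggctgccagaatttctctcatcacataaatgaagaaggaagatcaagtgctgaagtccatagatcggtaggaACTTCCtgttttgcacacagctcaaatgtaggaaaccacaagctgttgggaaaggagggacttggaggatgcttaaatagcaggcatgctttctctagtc
Cd68, chr11:69666171-69666420, minus strand: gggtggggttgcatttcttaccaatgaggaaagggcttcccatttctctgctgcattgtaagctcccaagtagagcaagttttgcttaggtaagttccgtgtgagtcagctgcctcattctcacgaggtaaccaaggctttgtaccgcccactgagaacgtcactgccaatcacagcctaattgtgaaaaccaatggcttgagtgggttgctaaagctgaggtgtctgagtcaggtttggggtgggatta
The Chil3 stretch holds ACTTCC at 2 places, Lyz2 holds it at 1 place, and the Cd68 stretch holds neither form.

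On the GRCm38 build, which the files also use, GENCODE M21 places the 10 protein-coding genes on 8 chromosomes. Identifiers are as the files give them, and M21 lists Csf1r under a later version of its identifier. Chil3 (ENSMUSG00000040809.10) lies at chr3:106147554-106167564 on the minus strand and Fcgr1 (ENSMUSG00000015947.10) at chr3:96282909-96293969 on the minus strand. Arg1 (ENSMUSG00000019987.9) lies at chr10:24915221-24927484 and Lyz2 (ENSMUSG00000069516.8) at chr10:117277331-117282321, both on the minus strand. Cd68 (ENSMUSG00000018774.13) lies at chr11:69664213-69666153 on the minus strand, and Cx3cr1 (ENSMUSG00000052336.7) at chr9:119901616-120069879 on the minus strand. On the plus strand are Mrc1 (ENSMUSG00000026712.3) at chr2:14229392-14332057, Cd163 (ENSMUSG00000008845.9) at chr6:124304656-124330527, Adgre1 (ENSMUSG00000004730.15) at chr17:57358691-57483527 and Csf1r (ENSMUSG00000024621.15) at chr18:61100598-61132149. Csf1r shares 873 of its 5774 exonic bases with Hmgxb3 on the opposite strand, and Cx3cr1 shares 78 of 4505 with Gm33858, so that reads there cannot be told apart if counting ignored strand, which is not given in the sources used here. The other 8 genes share no exonic base with a gene. Lyz2 and Chil3 have near copies, Lyz1 and Chil4, that could take part of their reads: Lyz1 reached at most 0.345 and Chil4 at most 0.0802 normalized CPM (reads scaled to the size of the library) in any library.

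The 16 libraries held 8.27 to 25.3 M estimated reads. In the isolations, the 6 fixed endothelial markers (Cldn5, Cdh5, Kdr, Tie1, Emcn and Pecam1) were all higher in endothelial libraries, and the 6 proximal tubule markers (Miox, Slc5a2, Kap, Slc34a1, Slc22a6 and Lrp2) were all lower there. Tubular RNA was present in endothelial libraries: the 6 proximal tubule genes summed to 13960 RPKM in exosome replicate 1, against 1360 to 6451 RPKM in the other 7 endothelial libraries. RPKM here is the normalized CPM divided by the length in kilobases of the gene's longest transcript. Leukocyte RNA was present as well, with summed levels of 6 pan-leukocyte genes of 43.6 and 91.7 RPKM with mimic, 48.2, 105 and 66.5 RPKM with exosomes, and 73.5, 76.7 and 62.4 RPKM with scrambled miRNA in endothelial libraries. In tubular libraries those sums ran from 3.31 to 11.9 RPKM. Bulk libraries cannot tell fewer cells of a type from less RNA per cell.

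The macrophage genes were higher in the endothelial than in the tubular isolation. The quasi-likelihood test of edgeR, over 8 libraries of each, called 10 of 10 higher at a Benjamini-Hochberg adjusted p below 0.05, where 36.3% of 17143 tested genes were called higher. DESeq2 also called all 10, and 67.7% of genes in either direction. The median log2 fold change of the 10 was 3.08. Chil3 had the highest fold, 5.66 (SE 0.56, adjusted p = 2.19e-06 by edgeR), and Csf1r the lowest, 2.14 (SE 0.16, adjusted p = 5.90e-08). Between them lay Arg1 at 4.45, Mrc1 at 4.04, Lyz2 at 3.48, Adgre1 at 3.31, Cd163 at 2.85, Cd68 at 2.72, Cx3cr1 at 2.63 and Fcgr1 at 2.59. Fitted folds of Chil3, Arg1 and Cd163 rest on tubular libraries with few or no reads and depend on the prior of the fit.

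Other phagocyte genes were higher in the same isolation. Of 23 further mononuclear phagocyte genes 22 were tested, and all 22 were higher in endothelial libraries, from Itgam (the integrin of Mac-1, log2 fold change 4.04) and Spi1 (3.65) downward. Among genes of classical activation 8 of 9 tested were higher, with Nos2 at 5.04, Il6 at 4.81 and Tnf at 3.60. Of those of alternative activation other than the 10 genes, 6 of 7 tested were higher, with Il10 at 5.67 and Tgfb1 at 3.35. Among 8 ligands and growth factors, 6 were tested: Csf1 (3.55), Ccl7 (2.88), Ccl2 (2.42) and Cx3cl1 (1.86) were higher in endothelial libraries, while Mif (-0.45) and Il34 (-0.38) were lower, as 29.9% of genes were. Genes of other leukocytes were also higher there, 8 of 9 of lymphocytes, 5 of 5 of dendritic cells and 4 of 5 of neutrophils. Their part in the difference of genes that neutrophils share, such as Lyz2 and Chil3, was not tested.

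**Figure D1:**
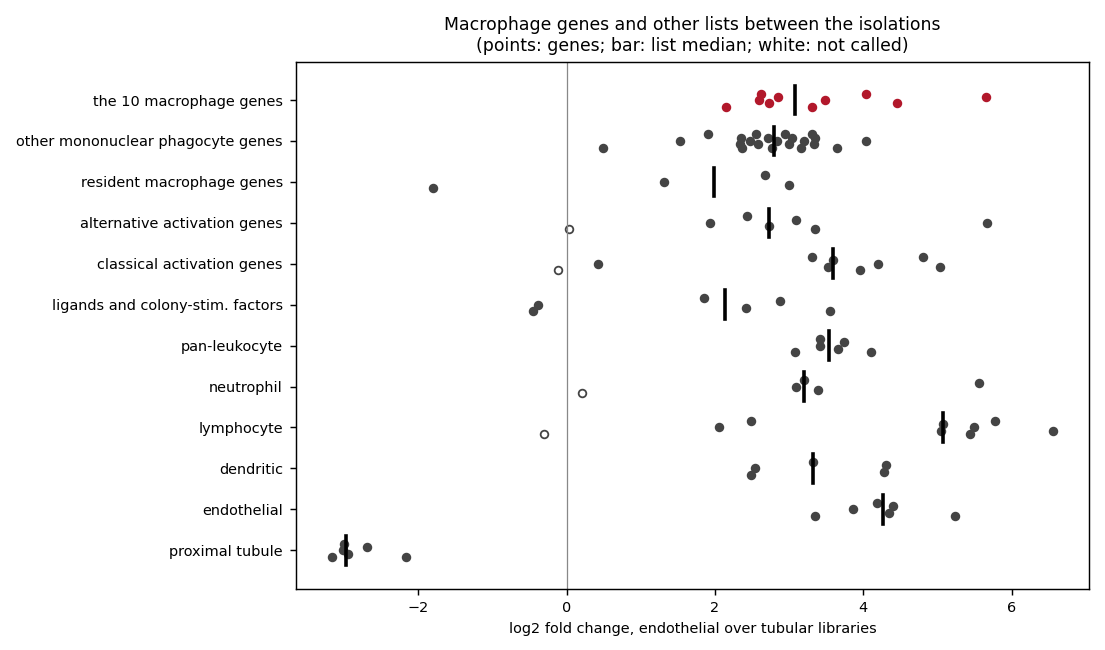
Log2 fold change of endothelial over tubular libraries (x axis, 8 libraries each) for the tested genes of each list (rows); each point is 1 gene, white points did not pass an adjusted p of 0.05, and vertical bars are list medians. All 10 macrophage genes lie right of 0, between 2.14 and 5.66, and the proximal tubule genes lie left of it.

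Levels among the genes were compared per length, as RPKM. In the 8 endothelial libraries Lyz2 led with a median of 90.5 RPKM (range 38.0 to 137), above every library of every other gene. Csf1r (median 9.98 RPKM), Cd68 (8.94 RPKM) and Mrc1 (6.09 RPKM) came next and overlapped one another. The lowest Mrc1 library, at 5.38 RPKM, lay above the highest Adgre1 library, at 4.93 RPKM. Adgre1 (median 3.66 RPKM), Cx3cr1 (2.86 RPKM), Fcgr1 (2.10 RPKM), Chil3 (1.51 RPKM), Arg1 (0.653 RPKM) and Cd163 (0.189 RPKM) followed, each overlapping its neighbour. In tubular libraries Lyz2 was again first (median 9.52 RPKM) and Csf1r second (2.24 RPKM), but the ranges of all neighbours in the order overlapped. Arg1, from 0.0890 to 14.5 RPKM, and Chil3, from 0.426 to 17.8 RPKM, had the widest endothelial ranges relative to their medians. This order is over all 3 groups: in scrambled miRNA libraries alone Chil3 was at 8.98, 17.8 and 14.2 RPKM, above every scrambled miRNA library of Mrc1 (6.24 to 7.37 RPKM) and overlapping Csf1r (8.03 to 12.4 RPKM).

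With mimic or exosomes, Chil3 and Arg1 were the macrophage genes that lay farthest below scrambled miRNA in endothelial libraries, and neither passed edgeR's test after adjustment. In endothelial libraries Chil3 had 1.12 and 0.903 normalized CPM with mimic, 1.77, 2.89 and 0.656 CPM with exosomes, and 13.8, 27.4 and 21.8 CPM with scrambled miRNA. All 5 treated libraries lay under all 3 scrambled miRNA libraries. The log2 fold change of Chil3 was -4.38 for mimic over scrambled miRNA (SE 0.58, adjusted p = 0.0545 by edgeR) and -3.53 for exosomes over scrambled miRNA (SE 0.47, adjusted p = 0.184). In the exosome comparison Chil3 ranked 2 of 16316 genes by unadjusted p. Arg1 had 0.131 and 0.188 CPM with mimic, 0.617, 0.444 and 1.31 CPM with exosomes, and 21.4, 4.07 and 5.10 CPM with scrambled miRNA. Those groups also did not overlap, and scrambled miRNA replicate 1 was the highest by far. The log2 fold change of Arg1 was -5.88 for mimic (SE 1.01, adjusted p = 0.0545 by edgeR) and -3.68 for exosomes (SE 0.74, adjusted p = 0.186).

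Whether Chil3 and Arg1 were called depended on the tool, the filter on low counts and the libraries in the fit. edgeR called 0 of 16316 genes (0.0%) in both endothelial comparisons with scrambled miRNA, although 3176 genes with mimic and 1860 with exosomes had an unadjusted p below 0.05. DESeq2 called 1355 genes (8.31% of those tested) with mimic and 412 (2.53%) with exosomes, and both sets held Chil3 and Arg1 and no other of the 10. Its adjusted p was 3.54e-12 for Chil3 and 1.56e-07 for Arg1 with mimic, and 1.77e-09 for Chil3 and 0.000247 for Arg1 with exosomes. Without exosome replicate 2, edgeR called Chil3 lower with exosomes (log2 fold change -4.06, adjusted p = 0.0289), in a range of 0.0289 to 0.485 over the 8 left-out libraries. In the mimic comparison, exosome replicates 1, 2 and 3 enter only through the filter, the size factors and the shared spread. Leaving out each of them in turn brought Chil3 to adjusted p = 0.0161, 0.0196 and 0.0197 and Arg1 to 0.0184, 0.0463 and 0.0338 by edgeR. Over all 8 left-out libraries, the adjusted p of Chil3 with mimic ran from 0.0161 to 0.388 and its log2 fold change from -4.64 to -4.20, and the adjusted p of Arg1 ran from 0.0184 to 0.388. The log2 fold change of Arg1 ran from -6.31 to -4.78 with mimic and from -4.25 to -2.55 with exosomes, and the values nearest 0 were those without scrambled miRNA replicate 1. Fitted on mimic and scrambled miRNA libraries alone, edgeR called both genes lower with mimic (adjusted p = 0.00411 for Chil3 and 0.0168 for Arg1). Fitted on exosome and scrambled miRNA libraries alone, it called neither (adjusted p = 0.372 for both).

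**Figure D2:**
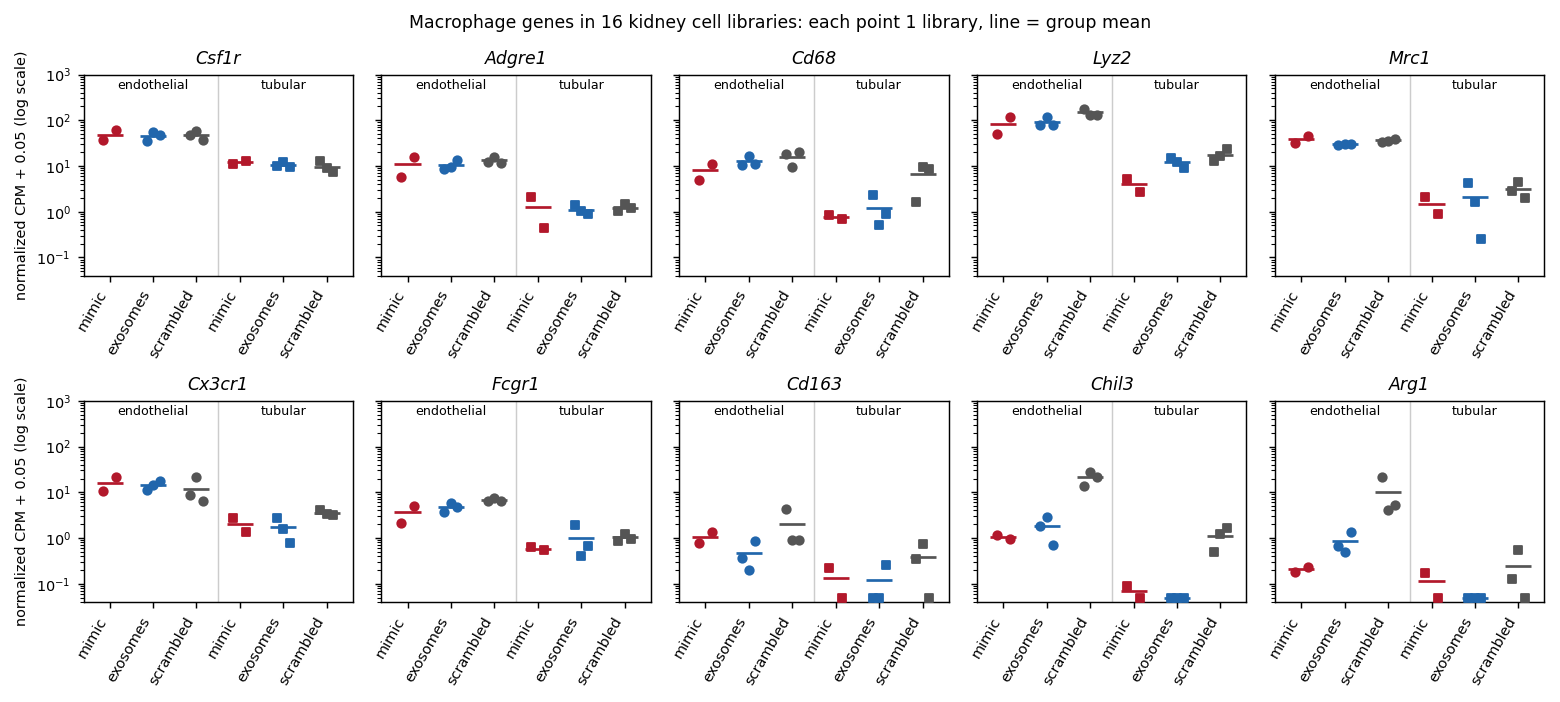
Normalized CPM plus 0.05 on a log axis for the 10 macrophage genes in 16 libraries; each point is 1 library (circles endothelial, squares tubular), lines are group means, and a library with no read sits at 0.05. In endothelial libraries Chil3 and Arg1 with mimic or exosomes lie under every scrambled miRNA library, while Csf1r overlaps between the 3 groups.

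The remaining endothelial values were closer together. Lyz2 had 50.1 and 118 CPM with mimic, 79.6, 120 and 78.6 CPM with exosomes, and 180, 133 and 133 CPM with scrambled miRNA. Every treated library was under every scrambled miRNA library, at a log2 fold change of -0.82 for mimic (SE 0.36, adjusted p = 0.254 by edgeR) and -0.67 for exosomes (SE 0.32, adjusted p = 0.478). Fcgr1 also did not overlap, with 2.10 and 5.04 CPM with mimic, 3.70, 5.85 and 4.84 CPM with exosomes, and 6.26, 7.50 and 6.51 CPM with scrambled miRNA. Cd68, the lysosomal marker, overlapped: it had 4.80 and 11.2 CPM with mimic, 10.6, 16.9 and 10.8 CPM with exosomes, and 18.1, 9.65 and 20.2 CPM with scrambled miRNA. Mrc1 had 31.9 and 44.4 CPM with mimic, 28.9, 30.3 and 30.8 CPM with exosomes, and 33.5, 35.2 and 39.6 CPM with scrambled miRNA. The exosome libraries of Mrc1 were thus all under the scrambled miRNA libraries by a small margin, and the mimic libraries lay on both sides. Cd163 was near its detection limit, at 0.723 and 1.32 CPM with mimic, 0.308, 0.148 and 0.820 CPM with exosomes, and 4.24, 0.857 and 0.863 CPM with scrambled miRNA.

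The receptors Csf1r and Cx3cr1 and the surface marker Adgre1 did not separate the endothelial groups. Csf1r had 36.6 and 60.3 CPM with mimic, 34.5, 55.1 and 46.6 CPM with exosomes, and 47.3, 58.1 and 37.7 CPM with scrambled miRNA. Its log2 fold change was 0.03 with mimic (SE 0.28) and -0.05 with exosomes (SE 0.25). Adgre1 had 5.78 and 15.7 CPM with mimic, 8.71, 9.56 and 13.5 CPM with exosomes, and 12.2, 16.0 and 11.5 CPM with scrambled miRNA. Cx3cr1 had 10.7 and 21.9 CPM with mimic, 11.4, 14.3 and 17.5 CPM with exosomes, and 8.57, 21.2 and 6.35 CPM with scrambled miRNA. Its log2 fold change was 0.46 with mimic (SE 0.49) and 0.29 with exosomes (SE 0.44).

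By counts, 4 of 10 genes (Lyz2, Fcgr1, Chil3 and Arg1) had both mimic libraries under all scrambled miRNA libraries, where 22.2% of 16316 genes did. With exosomes 6 of 10 did (the same 4 with Mrc1 and Cd163), where 6.61% of genes did, and none of the 10 lay wholly above in either comparison. Arg1 passed the low-count filter only through its scrambled miRNA libraries (232, 38 and 65 reads), so the filter favoured its place in both counts. Cd163 separated narrowly, at 0.820 CPM in the highest exosome library against 0.857 CPM in the lowest scrambled miRNA library. The median log2 fold change of the 10 was -0.86 with mimic and -0.39 with exosomes, against medians of all genes of 0.01 and 0.02. Between the treatments, Arg1 was lower and Mrc1 higher in both mimic libraries than in all exosome libraries (9.33% and 11.2% of genes did the same), and no gene of 16316 was called by edgeR (661 had an unadjusted p below 0.05, and DESeq2 called 5, or 0.0307%, and none of the 10). The median of the 10 for mimic over exosomes was -0.07.

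Several related phagocyte genes lay lower in the treated endothelial libraries without a call by edgeR. F13a1, coagulation factor XIII A chain of monocytes and resident macrophages, had 0.985 to 1.17 CPM with mimic, 2.29 to 3.33 CPM with exosomes and 11.1 to 25.7 CPM with scrambled miRNA, with log2 fold changes of -4.03 (SE 0.44, adjusted p = 0.0545) for mimic and -2.69 (SE 0.34, adjusted p = 0.184) for exosomes. Itgam had 9.79 to 16.4 CPM with mimic, 13.4 to 23.7 CPM with exosomes and 36.7 to 40.6 CPM with scrambled miRNA. The scavenger receptor Msr1 had 4.86 to 10.3 CPM with mimic, 9.67 to 17.0 CPM with exosomes and 26.9 to 31.2 CPM with scrambled miRNA. None of these 3 genes overlapped between treated and scrambled miRNA libraries, but they were named for small p in these same comparisons. Of all 16316 genes, 22.2% lay wholly under scrambled miRNA with mimic and 6.61% with exosomes. How many of the other listed genes did so is not given here. Cbr2 and Mgl2, both linked to resident or alternatively activated macrophages, had the opposite sign, with log2 fold changes of 1.55 (SE 0.36, adjusted p = 0.0761 by edgeR) and 1.67 (SE 0.47, adjusted p = 0.112) for mimic, and 1.21 and 1.18 for exosomes. Of the 22 other mononuclear phagocyte genes tested, edgeR called none in either comparison, and 17 had a negative fold with mimic and 20 with exosomes. DESeq2 called 4 of the 22 with mimic and 3 with exosomes, where it called 8.31% and 2.53% of all genes.

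Neutrophil genes are given beside these values. The 10 neutrophil genes summed to 19.5 and 31.8 RPKM with mimic, 10.1, 21.8 and 12.7 RPKM with exosomes, and 28.4, 56.6 and 58.2 RPKM with scrambled miRNA in endothelial libraries. The mimic and scrambled miRNA sums overlapped, and the exosome sums lay under all scrambled miRNA sums. Of these genes 5 were tested, and all 5 had a negative fold in both comparisons. edgeR called none of them, and DESeq2 called 1 with exosomes and none with mimic, where it called 2.53% and 8.31% of all genes. S100a8, a calcium-binding protein abundant in neutrophils, had a log2 fold change of -2.19 with exosomes (SE 0.41, adjusted p = 0.186 by edgeR, 0.000648 by DESeq2). The neutrophil part in Chil3 and Lyz2 was not tested. The pan-leukocyte genes given above overlapped between the groups, with median log2 fold changes of -0.04 with mimic and 0.00 with exosomes. The lymphocyte genes had positive folds in 9 of 9 with either treatment, none called, with medians of 0.87 and 0.77. Medians of all genes were 0.01 and 0.02.

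In tubular libraries, Cd68, Lyz2 and Chil3 were the macrophage genes farthest below scrambled miRNA, and none of the 8 genes tested passed edgeR's test. Cd163 and Arg1 had too few tubular reads to be tested. With exosomes, edgeR called 5.13% of 14913 genes, and with mimic 0.0201%, or 3 genes. Cd68 had 0.788 and 0.642 CPM with mimic, 2.25, 0.451 and 0.829 CPM with exosomes, and 1.57, 9.43 and 8.73 CPM with scrambled miRNA. Scrambled miRNA replicate 1 was low and fell within the exosome range, and the other two stood apart. The log2 fold change of Cd68 was -3.18 for mimic (SE 0.89, adjusted p = 0.161 by edgeR) and -2.46 for exosomes (SE 0.75, adjusted p = 0.0859). DESeq2 called both (adjusted p = 0.00587 for mimic and 0.0116 for exosomes), where it called 5.19% of 14901 genes with mimic and 12.2% with exosomes. Without scrambled miRNA replicate 1 edgeR called both as well (adjusted p = 0.0404 for mimic and 0.0293 for exosomes). Over all left-out libraries these ran up to 0.781 for mimic and 0.254 for exosomes.

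Lyz2 had 5.19 and 2.62 CPM in tubular libraries with mimic, 14.6, 12.4 and 8.91 CPM with exosomes, and 12.6, 16.9 and 23.6 CPM with scrambled miRNA. The mimic libraries were under all others, and the exosome and scrambled miRNA libraries overlapped. Its log2 fold change was -2.17 for mimic over scrambled miRNA (SE 0.39, adjusted p = 0.106 by edgeR, 2.60e-05 by DESeq2), and the adjusted p by edgeR was 0.0288 without scrambled miRNA replicate 1 and up to 0.781 without another library. For mimic over exosomes it was -1.61 (SE 0.38, adjusted p = 0.311 by edgeR, 0.0167 by DESeq2), in a comparison where edgeR called 0.0% of genes, 1848 had an unadjusted p below 0.05, and DESeq2 called 1.14%. Chil3 had 1 read over both mimic libraries and none over the 3 exosome libraries, against 32 reads over the 3 scrambled miRNA libraries. Scaled to library size it was 44.1-fold lower with mimic (95% interval 7.37 to 1800, counting error only), and at least 11.0-fold lower with exosomes against a floor of 3 reads over the group. Its adjusted p by edgeR was 0.165 with mimic and 0.0513 with exosomes. DESeq2 called Chil3 with exosomes (adjusted p = 0.00680), as did edgeR without scrambled miRNA replicate 1 (adjusted p = 0.0435, and up to 0.167 over the 6 left-out libraries that gave a test). Without scrambled miRNA replicate 2 or 3 the tubular reads of Chil3 were too few to be tested.

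The other tubular values were low and mostly overlapped. Csf1r had 11.2 and 12.7 CPM with mimic, 9.86, 12.1 and 9.33 CPM with exosomes, and 12.7, 9.04 and 7.24 CPM with scrambled miRNA, at log2 fold changes of 0.30 (SE 0.26) and 0.10 (SE 0.24). Cx3cr1 had 2.70 and 1.33 CPM with mimic, 2.73, 1.53 and 0.725 CPM with exosomes, and 3.96, 3.28 and 3.10 CPM with scrambled miRNA, and here the treated libraries were all under the scrambled miRNA ones. Mrc1 had 2.03 and 0.840 CPM with mimic, 4.17, 1.62 and 0.207 CPM with exosomes, and 2.76, 4.37 and 1.95 CPM with scrambled miRNA. The 3 groups overlapped widely, with exosome libraries both lowest and near the top. Fcgr1 ran from 0.494 to 0.581 CPM with mimic, 0.361 to 1.92 CPM with exosomes and 0.821 to 1.19 CPM with scrambled miRNA. Adgre1 ran from 0.395 to 2.03 CPM with mimic, 0.829 to 1.36 CPM with exosomes and 0.970 to 1.39 CPM with scrambled miRNA. Cd163 was at 0.695 CPM or less and Arg1 at 0.497 CPM or less in every tubular library. With mimic, 5 of 8 genes (Cd68, Lyz2, Cx3cr1, Fcgr1 and Chil3) lay wholly under scrambled miRNA, where 15.9% of genes did. With exosomes 2 of 8 (Cx3cr1 and Chil3) did, where 14.7% of genes did. Chil3 passed the low-count filter only through its scrambled miRNA libraries (6, 12 and 14 reads), so the filter favoured its place in both counts. Outside scrambled miRNA, Cd68 and Fcgr1 reached the level of that filter in exosome replicate 1 alone (28 and 24 reads). They too needed their scrambled miRNA libraries to pass, so the filter also favoured their place in the mimic count. The median log2 fold change over the 8 was -0.96 with mimic and -0.58 with exosomes. Setting Chil3 at its exosome bound (log2 fold change -3.46) could not move the second median, because Chil3 stayed the lowest of the 8.

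**Figure D3:**
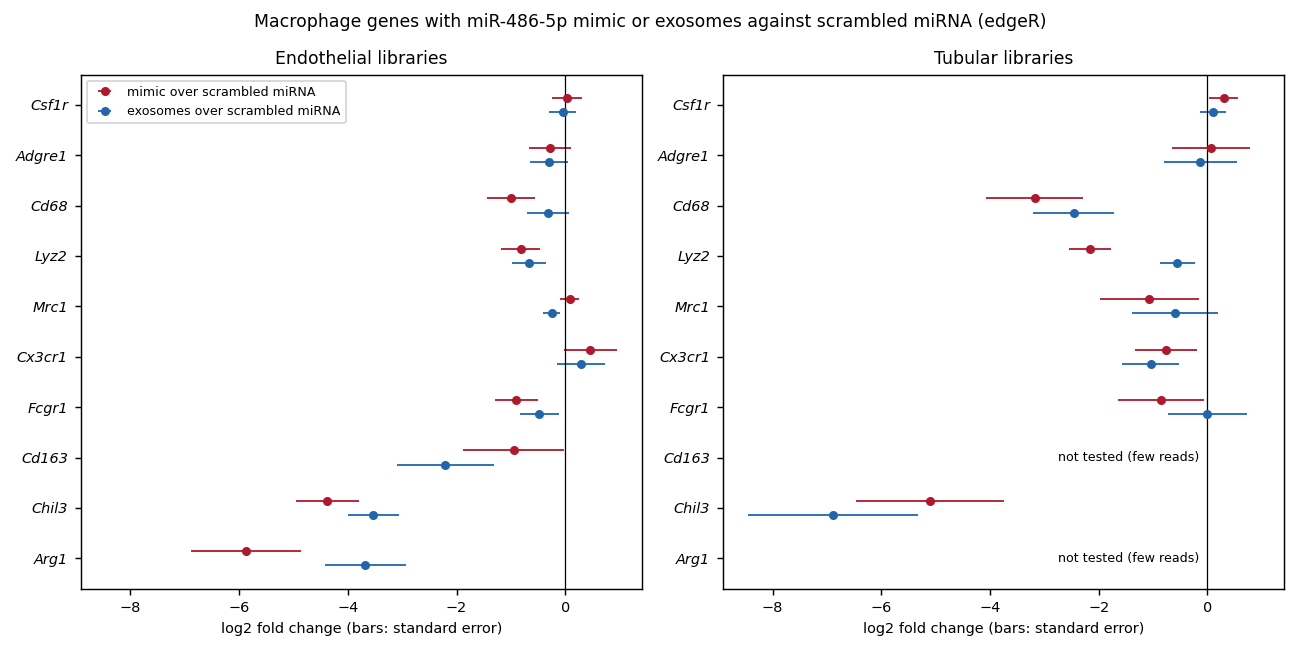
Log2 fold change (x axis, points) and standard error (bars) of each macrophage gene (rows) for mimic over scrambled miRNA and exosomes over scrambled miRNA, in endothelial (left) and tubular (right) libraries. Chil3 and Arg1 lie farthest left in endothelial libraries, Chil3, Cd68 and Lyz2 (mimic) in tubular ones, Csf1r lies near 0 in both, and the tubular Chil3 folds depend on the prior because treated libraries held 1 read or none.

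The ligands of 2 of the receptors were called in tubular libraries. Cx3cl1, the ligand of Cx3cr1, fell to 11.1 to 15.2 CPM with exosomes, against 28.3 to 47.2 CPM with scrambled miRNA (log2 fold change -1.39, SE 0.23, adjusted p = 0.0243 by edgeR). Il34, a ligand of Csf1r that injured tubules make, fell to 38.6 to 42.2 CPM with exosomes, against 55.2 to 123 CPM with scrambled miRNA (log2 fold change -1.12, SE 0.25, adjusted p = 0.0436). Csf1 ran from 0.311 to 3.21 CPM with exosomes and 3.36 to 17.8 CPM with scrambled miRNA (-2.45, adjusted p = 0.0819 by edgeR). Of 6 ligands tested 2 were called lower and none higher with exosomes, where 2.41% of genes were called lower. With mimic none of the 6 was called by edgeR, and all 6 had a negative fold and an unadjusted p below 0.05. Of all 14913 genes 16.3% had such a p by edgeR. DESeq2 called 2 of the 6 with mimic and 3 with exosomes, where it called 5.19% and 12.2% of genes. In endothelial libraries Il34 had 23.3 to 28.7 CPM with mimic, 28.2 to 46.4 CPM with exosomes and 58.6 to 82.5 CPM with scrambled miRNA, with an adjusted p of 0.0545 for mimic and 0.194 for exosomes by edgeR. Csf1 there overlapped, at 43.2 to 49.7 CPM with mimic, 36.2 to 52.7 CPM with exosomes and 39.0 to 40.2 CPM with scrambled miRNA.

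Cd14, the lipopolysaccharide co-receptor of monocytes that injured tubules can also express, was the 1 gene of 19 tested other mononuclear phagocyte genes called in tubular libraries with exosomes. Its median was 4.46 CPM with exosomes (highest 5.77) and 72.1 CPM with scrambled miRNA (highest 114), and the groups did not overlap (log2 fold change -3.74, SE 0.73, adjusted p = 0.0326 by edgeR). The neutrophil genes summed in tubular libraries to 2.04 and 0.358 RPKM with mimic, 2.25, 2.23 and 1.59 RPKM with exosomes, and 4.86, 31.9 and 6.11 RPKM with scrambled miRNA. All treated sums lay under the scrambled miRNA sums, and the 4 neutrophil genes tested had negative folds with either treatment. edgeR called none of the 4, and DESeq2 called 2 with mimic and 1 with exosomes, where it called 5.19% and 12.2% of all genes. Their part in Lyz2 and Chil3 was not tested. Of the 6 proximal tubule genes, edgeR called 1 higher with exosomes, Kap (log2 fold change 1.35, SE 0.32, adjusted p = 0.0455), while 4 of the 6 had a positive and 2 a negative fold, with a median of 0.29.

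Whether treatment changed a macrophage gene differently in the 2 isolations was tested directly by an interaction term over all 16 libraries. edgeR called 0 of 17143 genes (0.0%) for either treatment, with an unadjusted p below 0.05 in 2650 genes for mimic and 1333 for exosomes. DESeq2 called 573 genes (3.35%) for mimic and 34 (0.199%) for exosomes, none of them among the 10. The interaction of Cd68, whose fold was nearer 0 in endothelial than in tubular libraries, was 2.17 for mimic (SE 0.96, adjusted p = 0.297 by edgeR) and 2.10 for exosomes (SE 0.86, adjusted p = 0.598). For Lyz2 it was 1.34 with mimic (SE 0.54, adjusted p = 0.257) and -0.13 with exosomes. No difference between isolations in the response of Cd68 or Lyz2 passed this test.

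Comparisons with sham and with untreated injury came from the authors' deposited tables, whose log2 fold changes appear shrunken toward 0, so that a small fold can stand beside a small p. Chil3 and Cd68 were higher in untreated injury than in sham in both cell types. In the authors' deposited table of endothelial cells, Chil3 had a log2 fold change of 6.91 (adjusted p = 6.02e-11) and Cd68 of 3.10 (adjusted p = 2.33e-05) for untreated injury over sham, and these were 2 of 10 genes called higher, where 3.30% of genes were. In the authors' deposited table of tubular cells, Chil3 had 8.55 (adjusted p = 0.00191), Cd68 4.58 (adjusted p = 4.74e-08) and Fcgr1 2.30 (adjusted p = 0.0164), and these were 3 of the 8 genes with an adjusted p, where 11.5% of genes were called higher. Arg1 and Cd163 carry no adjusted p in the authors' deposited tables of tubular cells.

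The treated endothelial groups, set against the same sham libraries, had more macrophage genes called. In the authors' deposited table of mimic over sham, 8 of 10 were higher (Chil3 4.02, Cd163 2.64, Fcgr1 2.47, Cd68 2.34, Cx3cr1 2.22, Lyz2 1.95, Csf1r 1.89 and Mrc1 1.12), where 3.93% of genes were. In the authors' deposited table of exosomes over sham, 6 of 10 were higher (Chil3 4.84, Fcgr1 3.29, Cd68 3.21, Lyz2 2.28, Cx3cr1 2.08 and Csf1r 1.87), where 3.35% were. The same tables called 14 of 22 other mononuclear phagocyte genes higher with mimic and 17 of 21 with exosomes, against 7 of 22 in untreated injury. The differences between these counts were not tested. The 3 tables share the sham libraries, and sham and untreated libraries come from the earlier series, so the treatment and the series cannot be told apart in the treated tables. In tubular cells, the authors' deposited tables called none of 8 for mimic over sham (0.0448% of genes were called higher) and 2 of 8 for exosomes over sham, Fcgr1 (2.72, adjusted p = 0.0106) and Lyz2 (1.17, adjusted p = 0.0165), where 6.24% were.

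**Figure D4:**
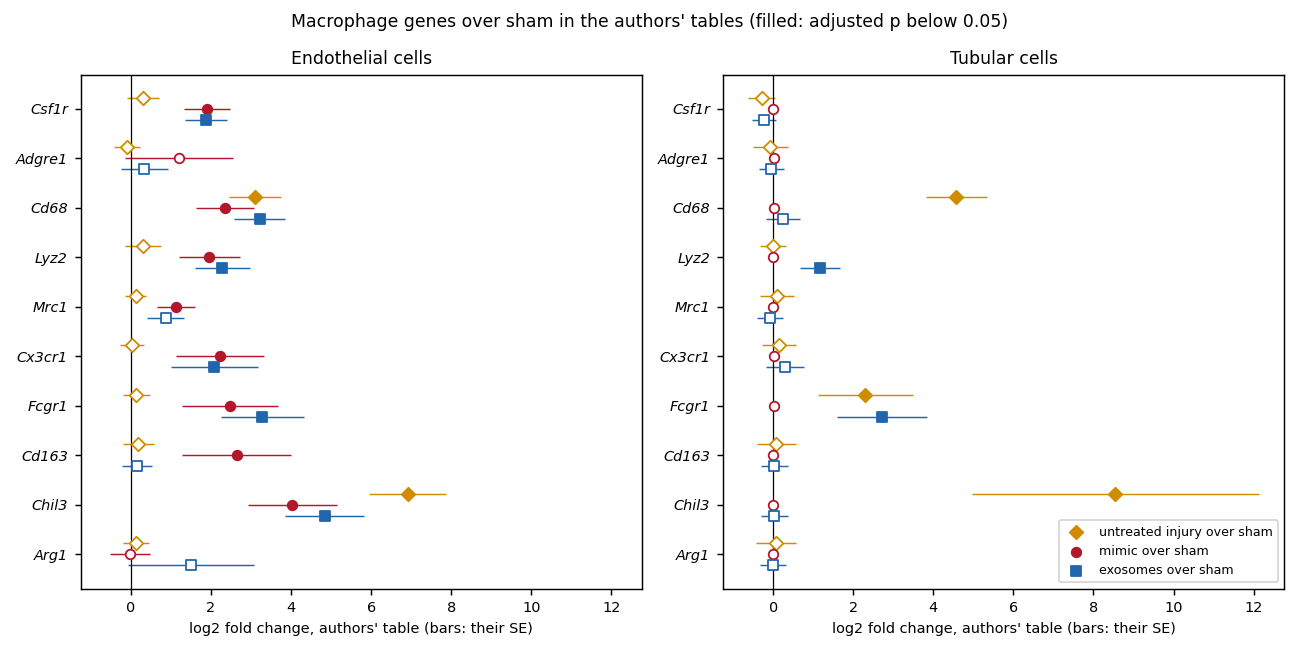
Log2 fold changes over sham (x axis) and their standard errors (bars) from the authors' deposited tables for the 10 macrophage genes (rows), in endothelial (left) and tubular (right) cells; filled symbols have an adjusted p below 0.05. Chil3 and Cd68 are filled in untreated injury in both cell types, 8 genes are filled for mimic and 6 for exosomes in endothelial cells, and the tubular mimic folds all sit near 0.

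The authors' deposited tables that set untreated injury against a treatment give untreated injury over the treated group, so that a negative fold means higher in the treated group. All of them cross the series, so the treatment and the series cannot be told apart. Arg1 was higher in scrambled miRNA than in untreated injury in endothelial cells, with -4.08 in the authors' deposited table (adjusted p = 0.000426). For Arg1 the mimic and exosome tables gave 0.29 (adjusted p = 0.423) and -0.16 (adjusted p = 0.394), also as untreated injury over treated in the authors' deposited tables. Adgre1 was higher in all 3 treated endothelial groups than in untreated injury, with -2.57 for mimic (adjusted p = 0.0189), -2.28 for exosomes (adjusted p = 0.0343) and -0.21 for scrambled miRNA (adjusted p = 0.00675) in the authors' deposited tables. Chil3 was not called in any of these 3 endothelial tables of the authors' deposited tables, with adjusted p of 0.0834 for mimic, 0.220 for exosomes and 0.276 for scrambled miRNA. These counts stood where 3.78% of genes for mimic, 1.95% for exosomes and 0.413% for scrambled miRNA were called lower in untreated injury.

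In tubular cells, mimic and exosomes had less Cd68 and Chil3 than untreated injury, while scrambled miRNA was not called for either. In the authors' deposited tables Cd68 had 4.16 for untreated injury over mimic (adjusted p = 6.25e-06) and 3.27 over exosomes (adjusted p = 2.13e-05), and 0.59 over scrambled miRNA (adjusted p = 0.158). Chil3 had 0.24 over mimic (adjusted p = 0.00617), 6.68 over exosomes (adjusted p = 0.00219) and -0.04 over scrambled miRNA (adjusted p = 0.791) in the authors' deposited tables. Lyz2 ran the other way for exosomes (-1.28, adjusted p = 0.00547) and scrambled miRNA (-1.82, adjusted p = 0.000449), both higher than untreated injury in the authors' deposited tables. For mimic Lyz2 was not called (0.02, adjusted p = 0.939), again as untreated injury over treated in the authors' deposited tables. Cx3cr1 was higher in scrambled miRNA as well (-1.36, adjusted p = 0.0380 in the authors' deposited tables). Genes called higher in untreated injury made up 14.1% of genes against mimic and 17.6% against exosomes, and those called lower 13.3% against exosomes and 6.75% against scrambled miRNA. These tables share the untreated libraries, which come from the earlier series, so here too the treatment and the series cannot be told apart.

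The genes whose levels across 8 libraries were most like the mean of the macrophage genes differed between isolations. In endothelial libraries they were Tmem131l (Pearson r 0.956, Spearman rho 0.952), Ccp110 (0.939 and 0.929), Serinc5 (0.937 and 0.952), Mpeg1 (0.934 and 0.905) and Slfn2 (0.900 and 0.857), of 10462 genes compared with the mean of all 10. Mpeg1, perforin-2 of macrophages, is on the fixed phagocyte list. In tubular libraries they were Rgs2 (0.972 and 0.905), Rragd (0.970 and 0.976), Vim (0.964 and 0.976), Klk1 (0.962 and 0.929) and Tacc1 (0.960 and 0.929), of 9162 genes compared with the mean of 8. These are descriptions over libraries that share groups and depth, with no test. The macrophage genes did not all move together. Pearson r of each with the mean of the others ran from -0.02 (Cx3cr1) to 0.90 (Lyz2) in endothelial libraries. In tubular libraries it ran from -0.56 (Csf1r) to 0.87 (Cx3cr1).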

How the data were processed

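Libraries of poly(A) RNA from kidney endothelial cells and tubules were read on a NextSeq 500, per the labels. The submitters' processing notes name Salmon 0.13.1, DESeq2 and the GRCm38 build without settings. The estimated counts per transcript were deposited by the authors without normalization, and TPM stands beside them per the file headers. The log2 fold changes, the p-value columns and a base mean (the mean signal of normalized libraries) were made by the authors and deposited in 12 comparison tables. Each fold there sets the first group of the table's name over the other.

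The 136202 transcripts were summed to 53392 genes by their own names, and the sums rounded. TPM was not used for levels, because very short transcripts inflate it: a Chil3 transcript of 174 bases with 12.6 reads gave 104 of 119 TPM in 1 endothelial library. edgeR 4.0.16 (R 4.3.3) was run per cell type on 3 groups, with TMM, filterByExpr (minimum count 10, minimum total 15), quasi-likelihood F tests and p-values adjusted after Benjamini-Hochberg (threshold 0.05). Tested genes numbered 16316 in endothelial and 14913 in tubular libraries. A fit of 16 libraries (17143 genes) gave the endothelial against tubular difference and the interactions. DESeq2 1.42.0 was the other tool. Log2 CPM used a prior count of 2. The scripts were tested on simulated data.

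The labels give 3 male mice per group, and n = 2 for mimic. Library numbers recur in both cell types without a statement that they mark one mouse, so libraries were taken as independent. Intervals and floors cover counting error only. Members and lists were chosen with earlier results of these data known. Named genes are all members, the near copies, Csf1, Il34 and Cx3cl1, and from each other list the called genes of largest fold or else those of smallest p. Alternatives were other size factors, DESeq2, no low-count filter, a length offset, a replicate block, only the groups compared, and each library left out.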

Additional observations from a re-analysis of the deposited data

How the results depend on the processing

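Endothelial over tubular, 10 of 10 macrophage genes were called under every alternative run. In the within-cell-type comparisons and interactions the main count was 0, and RLE size factors left each at 0. A length offset, run only for the within-cell-type comparisons, left each of those at 0. DESeq2 called 2 genes in each of the mimic and exosome comparisons with scrambled miRNA, in both cell types, and 1 (Lyz2) for tubular mimic over exosomes. It called 8.31% and 2.53% of all genes in the endothelial and 5.19% and 12.2% in the tubular mimic and exosome comparisons, and 1.14% in the last. Without the low-count filter edgeR called 4 genes for endothelial mimic (Cd68, Lyz2, Chil3 and Arg1), 2 for endothelial exosomes, 1 for endothelial mimic over exosomes (Arg1), 2 for tubular exosomes, 2 for tubular mimic, 1 for tubular mimic over exosomes, and 1 (exosomes) and 2 (mimic) for the interactions. Of all genes it then called 6.95%, 3.05%, 2.25%, 7.11%, 4.78%, 1.40%, 1.57% and 5.37% in these 8 comparisons. For Chil3 with endothelial exosomes the adjusted p by edgeR was 2.56e-21 without the filter, against 0.184 with it. The cause was not tested. Fitting only the 2 groups compared gave 2 for endothelial mimic. Correlations of deviations from group means were -0.07 to 0.24 for replicate numbers within cell types and -0.11 to 0.09 for library numbers between them. These values show no clear pairing, but they cannot settle whether a shared number marks 1 mouse. The replicate block gave 2 for endothelial mimic as well, Chil3 at adjusted p = 0.0212 and Arg1 at 0.0257 by edgeR, and changed no other count. Leaving out 1 library gave 0 to 1 genes for endothelial exosomes (1 without exosome replicate 2), 0 to 2 for endothelial mimic (2 without exosome replicate 1, 2 or 3), and 0 to 2 for tubular exosomes and tubular mimic (2 without scrambled miRNA replicate 1). Of 1345 single-gene folds recomputed, 39 became called, 0 lost a call, 0 reversed with a call and 72 changed sign without one. The mimic groups of 2 libraries and tubular counts of a few reads limit these tests: when 1 mimic library was left out, the lone one was assumed to vary like the others.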
